A study of Mus musculus with 2 samples.

Results

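The stretch of mouse chromosome 6 from 122200001 to 122800000 on mm8 was examined for binding of NcoA3 in E14 embryonic stem cells. It covers 600 kb and is taken to hold the gene cluster from Phc1 to Slc2a3, with Gdf3, Dppa3 and Nanog between them. Its members were the peaks of the deposited list that lay wholly inside it, which were 2 of 2017, and its 600 bins of 1 kb. The stretch was chosen from the peak list itself, with a strong peak in view, and the authors had selected the peaks for more ChIP than control reads. Ratios of ChIP to control reads in it are therefore descriptions, given without a test.

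E14 cells (E14Tg2A) are an established line of mouse embryonic stem cells, grown here on gelatin with leukaemia inhibitory factor, a cytokine that holds them undifferentiated. In ChIP-seq, DNA bound by a protein is pulled down with an antibody and sequenced. There were 2 libraries, both from this line with no treatment named: 1 from chromatin precipitated with an antibody to NcoA3, and 1 control, which the labels call input but list with IgG as its antibody. With 1 library per group no value has a replicate check, and the 95% intervals given here cover counting error only, not the spread between cultures or precipitations. The ChIP library held 11505977 reads on chromosomes 1 to 19, X and Y, and the control 15118454. Scaled to these totals, 0.761 ChIP reads per control read correspond to a ratio of 1. ChIP reads give no check of the cells' identity by marker expression.

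NcoA3 is a coactivator: it does not read DNA itself but is brought to it by nuclear receptors and other factors, and it recruits enzymes that modify chromatin. The title of the study ties it to Esrrb, an orphan nuclear receptor of embryonic stem cells. Nanog encodes a homeodomain transcription factor that sustains self-renewal, and Dppa3 (Stella) a protein of early germ cells and the egg that protects DNA methylation. Gdf3 encodes a ligand of the TGF-beta family, Phc1 a subunit of a Polycomb repressive complex, and Slc2a3 the glucose transporter GLUT3. The cluster is known for being expressed in pluripotent cells.

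The deposited files name no genes, and gene positions on mm8 were not used here, so peaks and bins are given by coordinate and not assigned to a gene. The order of genes came from RefSeq on GRCm38.p6, a later build whose positions are not comparable with those of mm8. In that order Phc1 comes first of the 5 named genes, followed by Gdf3, Dppa3, Nanog and Slc2a3.

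RefSeq promoters, which run from 250 bases before a gene's start to 50 after it, were at hand for 2 of the 5 named genes, Phc1 and Nanog. They are shown because the stretch is named for these genes and because nuclear receptors, which bring NcoA3 to DNA, read short motifs. Oct4 and Sox2, whose motifs are also marked, were not examined for a link to NcoA3. Phc1 is at chr6:122340178-122340477 on the minus strand and Nanog at chr6:122707239-122707538 on the plus strand, both on GRCm38.p6. Whether a peak covers either one was not determined. Capitals mark matches to 4 short motifs on either strand: AGGTCA (the nuclear receptor half-site), TCAAGGTCA (its extended form, which holds the shorter one and is preferred by Esrrb), ATGCAAA (the core bound by Oct4) and CATTGT (the core bound by Sox2).
Phc1: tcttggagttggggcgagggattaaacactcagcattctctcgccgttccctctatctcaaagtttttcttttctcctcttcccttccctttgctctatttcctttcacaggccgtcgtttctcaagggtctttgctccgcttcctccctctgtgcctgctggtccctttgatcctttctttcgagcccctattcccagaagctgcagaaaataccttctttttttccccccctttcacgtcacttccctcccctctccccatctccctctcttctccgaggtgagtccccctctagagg
Nanog: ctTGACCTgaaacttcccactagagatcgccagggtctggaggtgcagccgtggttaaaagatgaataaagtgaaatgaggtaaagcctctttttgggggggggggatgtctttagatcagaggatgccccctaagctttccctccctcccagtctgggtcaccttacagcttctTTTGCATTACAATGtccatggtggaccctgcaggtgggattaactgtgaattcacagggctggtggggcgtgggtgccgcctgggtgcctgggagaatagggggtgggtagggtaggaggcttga

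The Phc1 promoter held none of the 4 motifs. The Nanog promoter held AGGTCA once, on its minus strand at bases 3 to 8, counted from the first base shown. It also held the reverse complements of ATGCAAA at bases 176 to 182 and of CATTGT at bases 184 to 189, with 1 base between them. This is the Oct4 and Sox2 element for which the Nanog promoter is known. Among the 32851 RefSeq promoters of this length, 16.3% held AGGTCA, 0.423% TCAAGGTCA, 4.63% ATGCAAA and 12.6% CATTGT. The order CATTGT followed after 1 free base by ATGCAAA was found in 2 of them (0.00609%), and both were entries for Nanog, which has 2 overlapping ones. The second entry, which starts further along, held this pair but no AGGTCA. The pair was counted in the exact letters, order and spacing of the Nanog promoter, so the Nanog entries had to match. Near matches with other letters were not counted, so the count does not show the element to be particular to Nanog. All matches given here are letters in a window and not measured sites.

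The stronger of the 2 peaks spanned 122305873 to 122308436, a length of 2564 bp, with the authors' summit at 122307913. It held 132 ChIP reads (interval 110.4 to 157) and 10 control reads (interval 4.80 to 18.4). Scaled to 1e+06 reads (RPM), this was 11.5 RPM against 0.661 RPM, a ratio of 17.3 (interval 9.14 to 37.0). Both strands contributed to the ChIP reads, with 68 plus and 64 minus reads. The authors' deposited table gives it 145 tags, a score of 1236.31 and a fold of 19.62 over local background. Its empirical false discovery rate there is 100%, as it is for the weaker peak and for 2014 of the 2017 peaks in all. The caller allowed up to 2 tags per position, while 0 positions were repeated on a strand in the deposited reads. It listed 12003106 ChIP and 18332357 control tags, where 11509916 and 15125180 reads were deposited. The authors' values and the ratios given here thus do not rest on equal sets of reads.

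The weaker peak lay 423 kb further along, at 122731772 to 122732448, with its summit at 122732264 and a length of 677 bp. It held 24 ChIP reads (interval 15.4 to 35.7) and 7 control reads (interval 2.81 to 14.4), or 2.09 and 0.463 RPM. The ratio was 4.51 (interval 1.88 to 12.4). The ChIP reads of this peak were split unevenly by strand, 18 plus and 6 minus after 5′ ends were moved inward. With a pseudocount of 1 read in each library the folds were 15.9 at the stronger peak and 4.11 at the weaker one, beside a median of 3.94 over the whole list. By this fold 1 of the 2 was at 8-fold or more, where 9.62% of the whole list was. The authors' deposited table gives the weaker peak 25 tags, a score of 101.15 and a fold of 3.48, and 102 of the 2017 peaks have a fold that low or lower there. The 2 peaks were thus unlike each other in size and strength.

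**Figure D1:**
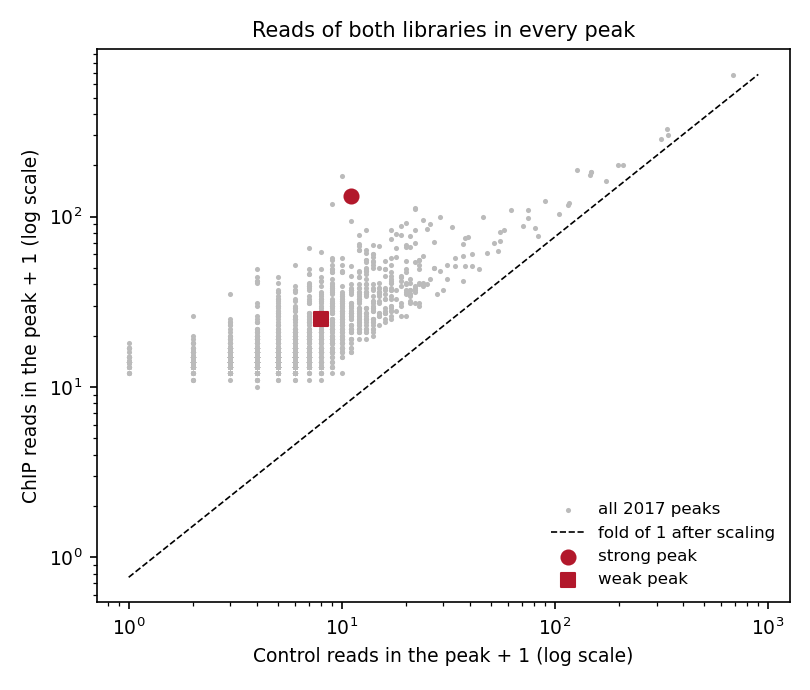
Control reads (x axis) against ChIP reads (y axis) in each of the 2017 peaks, both plus 1 and on log scales. Grey dots are all peaks, the red circle is the stronger peak (10 control, 132 ChIP reads), the red square is the weaker peak (7 control, 24 ChIP reads), and the dashed line marks a fold of 1 after scaling to library size. The circle lies at the upper edge of the cloud for its control count and the square inside the cloud.

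In the ranking by the authors' score the stronger peak was the third of the list and the weaker one was at 404. By ChIP reads the stronger peak was at 13 and by the fold with a pseudocount of 1 read at 41. A fold of 19.62 or more in the authors' deposited table was found for 5 peaks, this one included. Just above it by score were a peak on chromosome 14 with a ratio of 25.3 (interval 13.0 to 56.2) and one on chromosome 4 with a ratio of 19.4 (interval 9.52 to 45.9). Just below it were peaks on chromosome 9 (6.95, interval 4.33 to 11.7), chromosome 3 (6.29, interval 3.81 to 10.9) and chromosome 12 (6.88, interval 4.29 to 11.6). Its interval of 9.14 to 37.0 overlaps each of these. The 6 peaks next to the weaker one by score had ratios from 2.77 to 9.20, with 3 below and 3 above it.

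Within the stronger peak 2 maxima were taken: the highest count, and the highest count more than 500 bp from it. This rule always gives 2, so it does not count the maxima in the peak. In a running count over 100 bp on either side, with each 5′ end moved inward to the middle of its fragment, ChIP reads were highest at 122307941, with 40 reads against 2 in the control. A lower maximum of 17 ChIP reads against 0 lay at 122307005, 936 bp away. Between them the count fell to 3 ChIP reads at 122307583. These positions were picked from the reads and are a description. The part from the start of the peak to this low point held 67 ChIP and 6 control reads, a ratio of 14.7 (interval 6.40 to 41.4). The part from there to the end held 65 and 4, a ratio of 21.4 (interval 7.95 to 80.7). Both parts thus carried like numbers of ChIP reads, in 1711 bp on the left and 853 bp on the right, and their intervals overlap.

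In steps of 250 bp the ChIP reads ran 4, 11, 4, 16, 18, 9, 6 and 23 up to the summit, then 32, 9, 2, 2, 0, 0, 0 and 0 beyond it. The step of 11 reads, with 4 on either side, lay further left than both maxima. In the same steps the control held at most 3 reads. The ChIP signal thus reached 2 kb to the left of the summit and was at 2 reads or fewer per step from 500 bp to its right. Only 41.7% of the reads in this peak lay within 250 bp of its summit (interval 33.2% to 50.6%). Among the other 9 of the 10 peaks of highest score that share ran from 40.9% to 78.0%. The lowest was at 77335524 to 77337762 of chromosome 1, the one that came nearest in length at 2239 bp. The lower and upper quartiles of ChIP read positions were 1060 bp apart in the chromosome 6 peak and 1175 bp in that one, against 199 to 518 bp in the other 8. In the whole list 8 peaks were wider than 2564 bp. These 8 held 45 to 147 control reads and had ratios of 1.58 to 2.89, and their highest score in the authors' deposited table was 333.82.

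Reads from the 2 strands are displaced around a bound site, plus reads to its left and minus reads to its right. Within 300 bp of the summit of the weaker peak, 14 of 15 ChIP reads were laid out in this way, or 93.3% (interval 68.1% to 99.8%), against 42.9% of the 7 control reads (interval 9.90% to 81.6%). These 14 were 9 plus reads to the left and 5 minus reads to the right. Within 500 bp the numbers were 18 and 5, so the layout there came mostly from plus reads on 1 side. At the stronger peak the share was 61.3% of 62 ChIP reads (interval 48.1% to 73.4%), with 3 control reads. The median minus-strand end lay 20.5 bp to the right of the median plus-strand end in the right part of the stronger peak and 251.5 bp to the right in its left part. In the weaker peak it lay 451.0 bp to the right, from 18 plus and 3 minus reads whose ends fell in the peak before they were moved. The 2 strands were most often 132 bp apart in the ChIP library as a whole. The distances between medians cannot be set against that offset, because they use only ends that fell inside the borders of each region. Since the summits were placed on these reads, the layout is no separate evidence of binding.

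**Figure D2:**
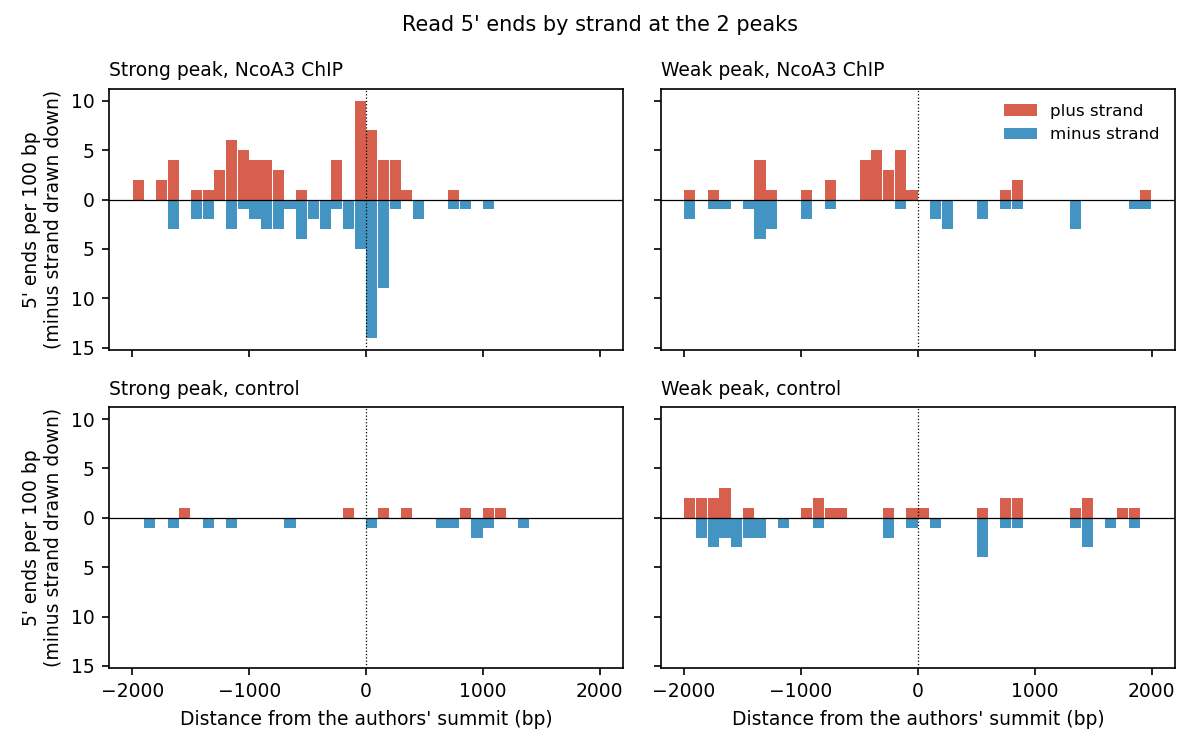
Number of read 5′ ends per 100 bp (y axis; plus strand in red upward, minus strand in blue downward) against distance from the authors' summit in bp (x axis) for the stronger peak (left) and the weaker peak (right), with the ChIP library above and the control below. ChIP reads of the stronger peak form one group at the summit and another about 1 kb to its left, where the control has few reads. Within 500 bp of the summit of the weaker peak, plus ChIP reads lie to its left and minus reads mostly to its right. Further out both strands lie on both sides.

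By 1 kb bins, counted from 5′ ends as deposited, the 4 bins that touch the stronger peak held 6, 38, 67 and 27 ChIP reads and 17, 5, 3 and 9 control reads. The fold with a pseudocount of 1 read was 22.3 in the bin at 122307001 to 122308000 and 8.54 in the one before it. Of all bins of chromosomes 1 to 19, X and Y, 135 held as many ChIP reads as the first of these or more, and 12 had a fold as high or higher, with that bin counted in both. The 2 bins that touch the weaker peak held 20 and 15 ChIP reads against 9 and 11 control reads, with folds of 2.76 and 1.75. On the scale of 1 kb the weaker peak thus reached 4-fold in neither bin.

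Of the 600 bins, 61 held 10 or more ChIP reads, and 4 of these (6.56%) were 4-fold or more above the control. Over the genome 11.5% of the bins with 10 or more ChIP reads were, and on chromosome 6 it was 998 of 8298 bins. The window's share was the lower one by this rule, but it rests on 4 bins, too few to tell it from the background. Of these 4 bins, 2 lay in the stronger peak. The others were more than 1 kb from any peak. The window was chosen with the stronger peak in view, so its 2 bins are part of that choice. Of the 55 bins with 10 or more ChIP reads more than 1 kb from a peak, 2 (3.64%) passed, also too few to tell from the background. The bin at 122413001 to 122414000 held 16 ChIP reads (interval 9.15 to 26.0) and 3 control reads (interval 0.619 to 8.77), a ratio of 7.01 (interval 2.01 to 37.5). It lay 105 kb beyond the summit of the stronger peak. The bin at 122590001 to 122591000 held 16 ChIP and 4 control reads, a ratio of 5.26 (interval 1.70 to 21.6). With 5′ ends moved inward the count was again 4 (11.7% over the genome), but the first of these bins no longer passed and the one at 122574001 to 122575000 did.

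The count of bins varied with the rule. With bins of 500 bp and at least 5 ChIP reads it was 18 of 218, or 8.26%, against 14.3% over the genome, and at 3-fold it was 10 of 61, or 16.4%, against 26.3%. Scaled by the reads of the window outside peaks it was also 10 of 61, against 22.0% of all bins scaled in that way. With bins that start 500 bp later it was 8 of 53, or 15.1%, against 11.6%, and with bins of 2 kb and at least 20 ChIP reads it was 1 of 16, or 6.25%, against 6.15%. The window's share was below that of the genome under 3 of these 5 rules and above it with the shifted start. With bins of 2 kb it was next to it and rests on 1 bin. The 3-fold rule and the scaling by the window passed the same 10 bins. All 5 rules recount the same reads, so their tally is no added evidence. The bin at 122306001 passed under 4 of the 5 rules, and with the shifted start 3 bins at the stronger peak passed.

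The bins with the most ChIP reads more than 1 kb from a peak were singled out after their values were seen. The one at 122668001 to 122669000 held 23 ChIP reads (11 plus and 12 minus) and 12 control reads, a ratio of 2.52 (interval 1.20 to 5.55). The one at 122574001 to 122575000 held 20 (16 plus and 4 minus) and 7, a ratio of 3.75 (interval 1.52 to 10.5). Both stood below the 38 and 67 ChIP reads in the middle of the stronger peak. The 590 bins more than 1 kb from a peak held 0 to 23 ChIP reads (median 5) and 0 to 38 control reads (median 8). Both libraries were at 0 in 2 bins of the window.

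**Figure D3:**
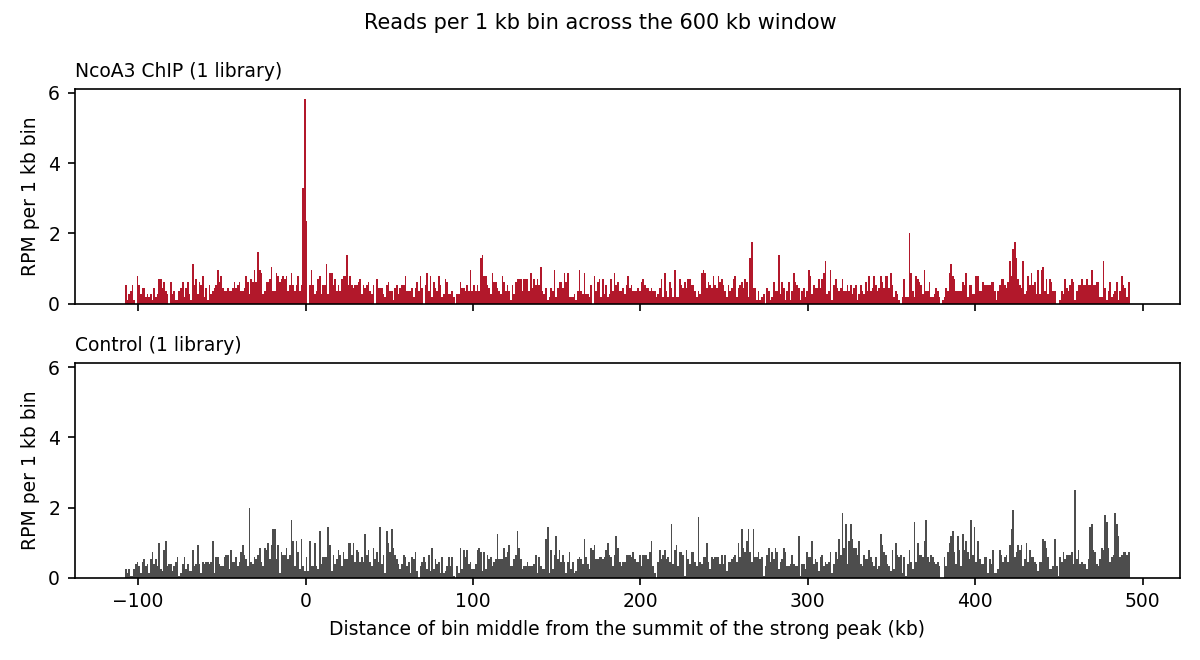
RPM per 1 kb bin (y axis, same scale in both panels) in the ChIP library (top, red) and the control (bottom, grey) across the 600 kb window, against the distance in kb of each bin from the summit of the stronger peak (x axis). One bin group at distance 0 reaches 5.82 RPM in the ChIP library, while outside the stronger peak no ChIP bin exceeds 23 reads and the highest control bin is at 2.51 RPM.

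The control, the deeper library, had more bins with enough reads. Of its 236 bins with 10 or more control reads, 19 (8.05%) were 4-fold or more higher in the control, against 13.5% of such bins over the genome. These 19 were spread over 11 of the 12 segments of 50 kb, with at most 4 in any. The bin with the most control reads, 122767001 to 122768000, held 38 control reads and 1 ChIP read, which was 2.51 and 0.0869 RPM. The next, 122274001 to 122275000, held 30 and 3. The third, 122730001 to 122731000, held 29 control and 18 ChIP reads, a ratio of 0.816 (interval 0.427 to 1.52), and ended less than 1 kb before the weaker peak. From 1 to 5 kb below the weaker peak the control thus stood at 72 reads in 4 kb and the ChIP library at 40, against 43 and 30 on the other side. Beside the stronger peak the control held 37 and 30 reads at the same distances, and the ChIP library 24 reads in 4 kb on either side. The part of the control-rich neighbourhood in the low fold that the authors' caller gave the weaker peak was not tested.

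Outside the 2 peaks the window was poorer in ChIP reads than in control reads. It held 3364 ChIP and 5499 control reads there, a ratio of 0.804 (interval 0.770 to 0.839), where all of chromosome 6 outside peaks stood at 1.06 and the autosomes at 0.989. With peaks included the ratio was 0.838, and 26.4% of 22572 windows of 600 kb over the genome, taken every 100 kb, were as low or lower. The control density was raised: the median of its 10 kb bins without peaks was 88.5 reads, 1.77 times that of chromosome 6 and 1.64 times that of the autosomes. The median of the ChIP library was 56.0 reads, 1.19 and 1.17 times. Of the 600 kb windows, peaks included, 14.8% held as many control reads or more and 4.48% as many ChIP reads or more. By rank among windows the ChIP count was thus the more unusual of the 2. The low ratio went with many control reads and not with few ChIP reads, and what raised the control there was not tested.

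By 50 kb segments the ratio outside peaks ranged from 0.599 (interval 0.515 to 0.695) in the last, 122750001 to 122800000, to 1.05 (interval 0.906 to 1.22) at 122400001 to 122450000. The segment around the stronger peak stood at 0.809 (interval 0.697 to 0.937) without the peak, so its surroundings were not raised. The last segment held 568 control reads, the most of the 12, and 259 ChIP reads. Its interval lay below those of the first 5 segments and of the one that holds the weaker peak, and overlapped those of the other 5.

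**Figure D4:**
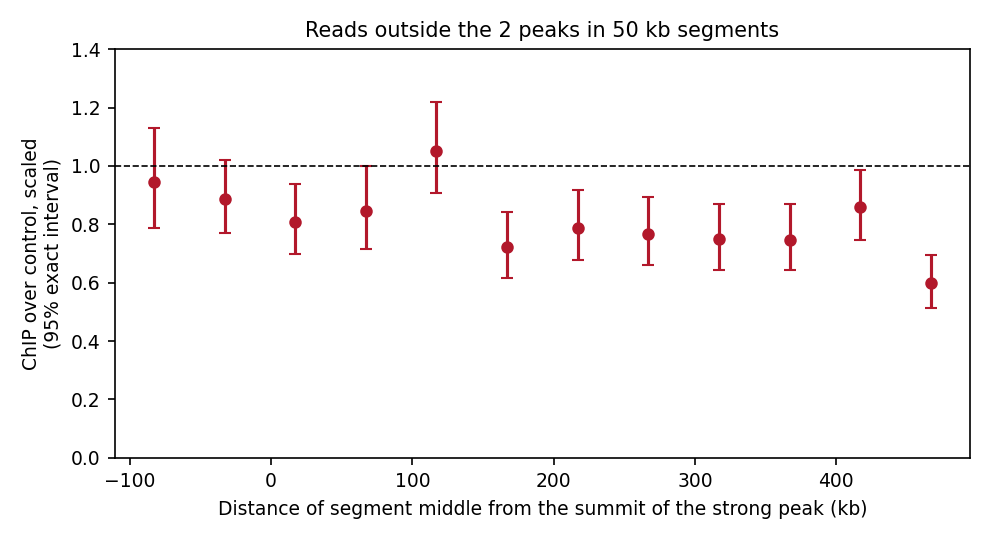
Ratio of ChIP to control reads outside the 2 peaks, scaled to library size (y axis), in each of 12 segments of 50 kb against the distance in kb of its middle from the summit of the stronger peak (x axis). Points are ratios, bars are 95% exact intervals for counting error, and the dashed line marks 1; one point lies above the line, at 1.05, and the last is the lowest at 0.599.

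The 2 peaks made up 0.540% of the length of the window, 4.43% of its ChIP reads and 0.308% of its control reads. Together they held 156 ChIP and 17 control reads, a ratio of 12.1 (interval 7.29 to 21.2), of which the stronger peak supplied 132 and 10. The stretch held 3.33 peaks per Mb where chromosome 6 held 0.742 and the genome 0.767, and 10.6% of the 600 kb windows over the genome held 2 or more. Since the window was placed around known peaks, this density is no measure of clustering. The windows with the most peaks held 14 on chromosome 8 (58700001 to 59300000), 13 on chromosome 12 (115700001 to 116300000) and 13 on chromosome 4 (145900001 to 146500000). Their ratios, peaks included, were 1.62, 1.52 and 1.23.

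Beyond its borders the nearest peak below lay 2272 kb away, at 119927609 to 119928199, with 12 ChIP reads and 1 control read. The nearest above lay 369 kb away, at 123169383 to 123169916, with 11 and 3. The first and last bins of the window held 6 and 7 ChIP reads against 4 and 11 control reads, and those just outside held 4 and 6 against 5 and 9. The bins at the borders held no more than 7 ChIP reads, and between the 2 peaks no other site reached the authors' list.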

How the data were processed

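Per the submitters' processing notes the reads lie on mm8; which aligner placed them was not given in these sources. The authors deposited 1 line per 35 bp read with its start and end. Peaks were called by the authors with MACS 1.4.1 on 1 ChIP library against 1 control, at a p-value limit of 1e-05 with d = 200 and at most 2 tags per position, per the file headers. The deposited list gives tag counts, a score of 10 times the negative log10 p, a ratio (fold over local background) and an empirical false discovery rate in percent.

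Reads were counted with scipy 1.17.1, pandas 2.3.3 and numpy 2.4.6 under Python 3.11.15. For peaks, 5′ ends were moved inward by 66 bp (ChIP) and 75 bp (control), from strand offsets of 132 and 150 bp; for bins they were not moved. Folds carry a pseudocount of 1 read, ratios with 95% exact Clopper-Pearson intervals none. A count of 0 allows up to 3 reads, or 0.261 RPM (ChIP) and 0.198 RPM (control). Bins needed 10 reads and 4-fold. Densities used 10 kb bins with 10 or more control reads, and 600 kb windows needed 2000. Every peak of the window is named, with its bins past 4-fold, the 3 bins of most control reads, the genes Phc1, Gdf3, Dppa3, Nanog and Slc2a3, the peaks next by score and the 3 windows of most peaks. The members, motifs and settings were chosen with earlier results of these data known. The rule's neighbouring genes are not reported here. The counting was tested on simulated data.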

Additional observations from a re-analysis of the deposited data

How the results depend on the processing

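Of 44 alternatives over 12 results, 37 stayed within the counting interval of the value reported or within 1.5 times its count, and 7 moved. All use the same 2 libraries, so the tally is no added evidence. Some could not differ from the main value. A score limit of 100 kept both peaks (1236.31 and 101.15). Widening the window by 50 kb or joining peaks under 10 kb apart met no other peak, the nearest being 369 kb outside and the 2 peaks 423 kb apart. The stronger peak ranged from 16.3 to 24.1 and the weaker from 3.94 to 5.60. Without the peak of the highest score, the ratio of the window's peaks together fell from 12.1 to 4.51. The ratio outside peaks was 0.756 when scaled by chromosome 6 instead of 0.804. For read densities the interval treated the median of 58 bins as 1 count, so staying within it says little. By means of bins the control stood at 1.63 times chromosome 6 and 1.45 times the autosomes, against 1.77 and 1.64 by medians. The ChIP library stood at 1.23 and 1.18, against 1.19 and 1.17. The count of 4 bins at 4-fold was 8 with bins starting 500 bp later, 18 with bins of 500 bp and at least 5 ChIP reads, 1 with bins of 2 kb and at least 20 ChIP reads, 10 at 3-fold and 10 when scaled by the window outside peaks. No paired analysis was possible because each group has 1 library and no result comes from a test. At this depth a 1 kb bin with the median of 8 control reads needs 27 ChIP reads to reach 4-fold, so smaller rises in such bins could not be counted.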
